A study of Homo sapiens with 6 samples.

Results

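The RNAs that encode the core proteins of the microRNA pathway were examined in RIP-Seq data of CELF1 (also called CUGBP1), an RNA-binding protein that recognises GU-rich stretches, mostly in 3′ UTRs, and is known to act on mRNA decay, translation and splicing. The 10 genes are grouped by their function, and the rule that defines them uses no measured value. They are DROSHA, DGCR8 and DICER1, which act in the processing of microRNA precursors, the Argonautes AGO1, AGO2, AGO3 and AGO4, and the scaffold genes TNRC6A, TNRC6B and TNRC6C. A bin of a peak list was assigned to a gene when its centre lay in an exon on the strand of the transcript. The annotation held 20176 protein-coding genes, and each of the 10 genes had listed bins to describe in each sample. A bin can be listed with as few as 4 IP reads, so this is no result about the 10 genes. The share of all genes with listed bins was not counted.

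The series comprises 6 samples of untreated melanoma lines grown in serum. Anti-CUGBP1 immunoprecipitates (IP) were sequenced in replicate 1 of SK-Mel-103 and in replicates 1 and 3 of UACC-62, and an input library accompanied each of them. The labels describe the IP RNA as poly A+, whereas the library protocol removed ribosomal RNA. SK-Mel-103 has 1 IP sample and UACC-62 has 2, so that no difference between the lines could be tested, and the labels do not say whether the replicates were separate cultures. The inputs were used here only through a column of the 3 IP lists, in which the IP count, the p-value and the scaled input of each 20-bp bin are given. The lists hold 780750 to 862731 bins with 10958459 to 14436573 IP reads and 8453517 to 10161917 input reads. Of these bins, 1535, 1926 and 2359 belong to the 10 genes in SK-Mel-103 and in the first and second listed replicate of UACC-62 (replicates 1 and 3), the order of samples kept below.

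A listed bin is not by itself enriched over input. No bin had fewer than 4 IP reads, and 32.2% to 34.8% of the bins in a list had a larger share of the input than of the IP reads. In SK-Mel-103, 6 of 9 melanocyte markers (PMEL, TYR, TYRP1, DCT, S100B and S100A1) had no input reads in listed bins, and in both UACC-62 samples 2 of 9 (PMEL and TYRP1) had none. The summed input of the 9 markers was 22.2 in SK-Mel-103 against 494 and 432 in UACC-62, in RPKM computed from listed bins. The input of the 3 keratinocyte markers was at 0 throughout, the 3 immune markers were at 0 except for PTPRC in UACC-62 replicate 1 (3 input reads), and of 3 fibroblast markers only LUM had input reads (RPKM of 0.443, 8.81 and 5.76).

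In the pathway, DROSHA with its partner DGCR8 frees the hairpin precursor from the primary transcript in the nucleus, and DICER1 cuts the hairpin to a duplex in the cytoplasm. An Argonaute protein then keeps a single strand as guide, binds target mRNAs through the seed of the guide and recruits a TNRC6 (GW182) protein, which brings in the deadenylases that repress the target. Several of these mRNAs carry very long 3′ UTRs, which is where CELF1 and microRNAs both bind.

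Enrichment is given below as log2 IP over input (log2 enrichment), that is, the reads in the listed exonic bins of a gene divided by the totals of the list, with a pseudocount of 1 read. For a single sample the 95% interval is a Clopper-Pearson interval of IP among IP and input reads. Reads are not independent molecules, so these intervals cover counting error only.

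TNRC6C, TNRC6B, AGO2 and AGO4 stood highest and DROSHA lowest. The log2 enrichment was above 0 in all 3 samples for 7 of 10 genes, namely all 4 Argonautes and all 3 TNRC6 genes, although AGO3 was below 0 in both lines when only its 3 bins listed in all 3 samples were used. The background was 25.8% of the 7672 protein-coding genes with at least 50 reads in each sample, and all 10 genes passed that minimum. It was below 0 in all 3 samples for DROSHA alone, against 54.4% of the same background. The median of the 10 genes was 0.42, 0.46 and 0.77, whereas the median of all genes that passed was -0.26, -0.70 and -0.48. By role, the TNRC6 genes had medians of 1.90, 2.12 and 2.18, the Argonautes 1.08, 0.73 and 0.98, and the 3 processing genes -0.03, -0.37 and 0.07. The order of the roles was the same in every sample. Genes with little input were above 0 more often. When the genes that passed were split into 4 groups of equal size by their lowest input count, 39.7% of the group with the fewest reads (0 to 72, which includes AGO4 and DGCR8) were above 0 in all 3 samples. In the other groups this was 21.3% (73 to 227 reads, with AGO3 and TNRC6C), 21.8% (228 to 683 reads, with AGO1, DROSHA and TNRC6A) and 20.2% (684 to 36441 reads, with AGO2, DICER1 and TNRC6B).

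**Figure D1:**
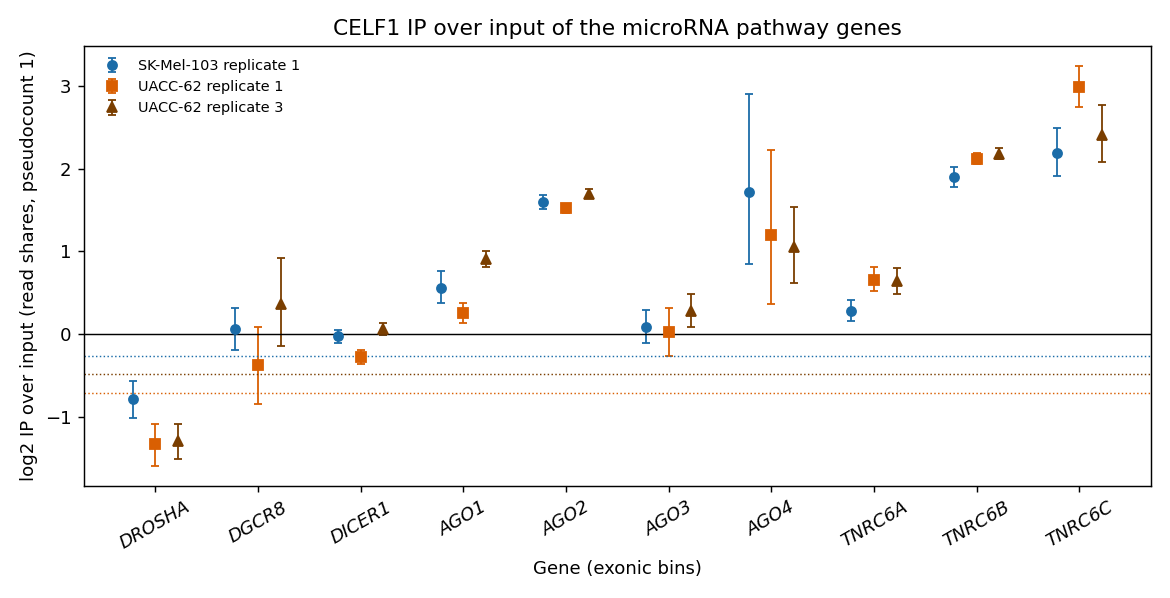
Log2 IP over input of the exonic bins of each gene (vertical axis) in the SK-Mel-103 sample and both UACC-62 samples (symbols), with 95% Clopper-Pearson intervals as bars and the median of all genes that passed in each sample as dotted lines. TNRC6B, TNRC6C and AGO2 lie at 1.52 or more in each sample, and DROSHA lies below the dotted lines.

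TNRC6B (chr22:40440821-40731812, plus strand), whose protein bridges Argonaute and the deadenylases, had 3393, 10185 and 13741 IP reads against 702, 2099 and 1866 input reads. Both columns were lower in SK-Mel-103 than in either UACC-62 sample. The log2 enrichment was 1.90 in SK-Mel-103 (95% interval 1.78 to 2.02) and 2.15 ± 0.04 in UACC-62 (SD, n = 2), at or above the 96.3rd percentile of the genes that passed in every sample. The SK-Mel-103 value was below both UACC-62 values.

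TNRC6C (chr17:75954785-76104903, plus strand), a paralogue of the same function, had 702, 1345 and 694 IP reads against 118, 152 and 80 input reads. Its log2 enrichment was 2.19 in SK-Mel-103 (1.92 to 2.49) and 2.69 ± 0.41 in UACC-62, the highest of the 10 genes in each sample. The input of TNRC6C was low, with an RPKM between 0.773 and 1.29 over the exons.

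TNRC6A (chr16:24621530-24838953, plus strand), the founding member of the family, lay far below both paralogues. It had 1254, 1069 and 1133 IP reads against 794, 606 and 448 input reads, with a log2 enrichment of 0.28 (0.16 to 0.41) in SK-Mel-103 versus 0.65 ± 0.02 in UACC-62. Among the TNRC6 genes it had the lowest value in every sample, and its intervals did not overlap those of either paralogue.

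GU-rich elements (GREs) were searched in the 3′ UTR of the representative transcript as stretches of 11 nt within 2 mismatches of a repeat of UG or of UGUU, on the transcript strand, with overlapping matches counted once. Such elements are common in long 3′ UTRs. Of the 3549 representative 3′ UTRs of 3000 nt or more, 94.2% held at least 1, with a median of 0.79 per kb, and of all 19286 it was 52.1%. All 10 genes held at least 1. TNRC6C had 10 in 3977 nt (2.51 per kb) and TNRC6B 25 in 12567 nt (1.99 per kb), more per kb than 98.6% and 95.3% of the 3′ UTRs of 3000 nt or more. The other 8 genes had 0.57 to 1.24 per kb. The share of G and T hardly differed among the 10 3′ UTRs, from 51.4% to 54.3%, so that TNRC6B and TNRC6C stand apart in how these bases are arranged and not in how many there are. The elements of AGO2 were left out of the display that follows, so their mismatches are not given. To set the best matches to the motif beside the reads around them, the element with the fewest mismatches (the first from the stop codon where tied) is shown for 6 genes in which it has at most 1, in DNA letters on the strand of the transcript (GRCh37), with the 11 nt in capitals and 9 nt on each side.
TNRC6B (chr22:40723226-40723254, plus strand, no mismatch): ggacgcacaTGTGTGTGTGTgtggtccag
TNRC6C (chr17:76101708-76101736, plus strand, no mismatch): aaacagaagTGTGTGTGTGTgtgcatgtg
AGO3 (chr1:36526777-36526805, plus strand, no mismatch): gagggggagTGTGTGTGTGTgtatatgta
AGO1 (chr1:36389729-36389757, plus strand, 1 mismatch): tttgagattTGTGTTTGTGTcctgctttg
TNRC6A (chr16:24835877-24835905, plus strand, 1 mismatch): ttacagattTTTTTGTTTGTtttttgaga
DROSHA (chr5:31400779-31400807, minus strand, 1 mismatch): attcaatttTCTGTGTGTGTttgagattt

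The same uninterrupted run of UG in TNRC6B, TNRC6C and AGO3 came with very different reads. Within 100 nt of the TNRC6C element (position 791 of the 3′ UTR) there were 24, 87 and 64 IP reads against 0, 6 and 3 input reads. Around that of TNRC6B (position 3990) there were 40, 170 and 194 against 19, 42 and 18, which gave a log2 enrichment of 0.66, 1.83 and 2.66. The whole 3′ UTR of TNRC6B had 1.98, 2.28 and 2.41. That was higher than around the element in SK-Mel-103 and UACC-62 replicate 1, and lower in UACC-62 replicate 3. Around that of AGO3 (position 5440) there were only 4, 4 and 17 against 6, 6 and 6. The TNRC6A element (position 758) had 27, 31 and 41 against 23, 13 and 11, and that of AGO1 (position 4530) 64, 73 and 169 against 27, 69 and 61. The DROSHA element (position 741) lay in a stretch with 11 IP reads and 1 input read in SK-Mel-103 and no listed bin in UACC-62. The same exact element was present in the 3′ UTR of TNRC6C, which had the highest log2 enrichment of the 10 genes over its exons, and in that of AGO3, whose exons had 0.09, 0.03 and 0.28.

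**Figure D2:**
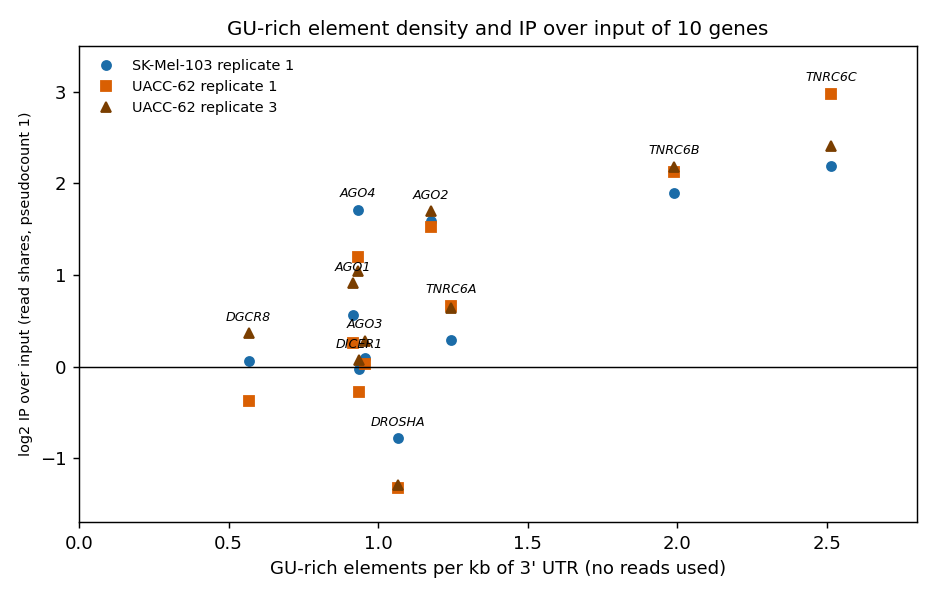
GU-rich elements per kb of the representative 3′ UTR (horizontal axis) against log2 enrichment, IP over input, of the exons (vertical axis) for the 10 genes, with a symbol for each of the 3 samples. TNRC6B and TNRC6C lie apart at 1.99 and 2.51 elements per kb, and the other 8 genes span from DROSHA to AGO4 on the vertical axis between 0.57 and 1.24 per kb.

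Bins within 100 nt of an element were compared with the remaining bins of the same 3′ UTR. For TNRC6B these bins make up 30.1% of the 3′ UTR, and their log2 enrichment was 2.12, 2.63 and 2.58 against 1.88, 2.08 and 2.32 farther away. For AGO2 it was 1.82, 1.91 and 1.86 against 1.59, 1.57 and 1.79. For DICER1 (18.3%) it was 0.44, 0.50 and 0.73 against 0.37, 0.16 and 0.62. In these 3 of 7 genes the bins near an element were higher in all 3 samples, against a background of 35.2% of 3294 genes. None of the 7 was lower in all 3 samples, against 16.5%, and neither share stands far from the background. In AGO1, AGO3, TNRC6A and TNRC6C the sign of the difference varied between samples, and DROSHA, DGCR8 and AGO4 had too few reads near an element for a value in every sample.

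A common peak was defined by the filter of the study, a bin with more than 30 IP reads in all 3 samples. AGO2 and TNRC6B held such peaks, 2 of 10 genes, against a background of 8.75% of all 20176 protein-coding genes and of 23% of the 7672 genes with at least 50 reads in each sample. As all 10 genes belong to the latter, their share is near the background. All common peaks of both genes lay in the 3′ UTR. TNRC6B had 6, at positions 1546, 1626, 7646, 7806, 8206 and 8226 of its 12567 nt. The bin at position 1546 had 45, 93 and 85 IP reads against 6, 8 and 6 input reads, and the bin at 8206 had 45, 88 and 96 against 10, 10 and 6. The bin at 1626 had 39, 75 and 50 against 1, 7 and 9, and the bin at 7806 had 33, 79 and 79 against 3, 4 and 6. Over the 6 bins and 3 samples, the log2 enrichment ranged from 1.65 to 3.95, with IP above input in every case. The sequences of these 4 bins are shown on the transcript strand, in DNA letters, to set the strongest IP bins beside the elements above, with TGT (the core of a GRE) in capitals. The bins at 1546 and 8206 tie for the highest IP count in their lowest sample (45 reads), and the bins at 1626 and 7806 were added after their values had been seen.
TNRC6B position 1546 (chr22:40720781-40720800, plus strand): acttttaagtattgcacctt
TNRC6B position 1626 (chr22:40720861-40720880, plus strand): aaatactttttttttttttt
TNRC6B position 7806 (chr22:40727041-40727060, plus strand): gtttttTGTttttcTGTaag
TNRC6B position 8206 (chr22:40727441-40727460, plus strand): aaatgctaagggccatttcc

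Of the 6 common bins of TNRC6B, 1 held TGT, the bin at 7806, which begins 1 nt from an element. The other 5 were 46 to 126 nt from the nearest element. TGT is present in 32.3% of all 20-nt windows of the representative 3′ UTRs and in 35.7% of those of TNRC6B. The libraries were made from randomly fragmented RNA, so a bin with many reads need not hold the contact site.

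AGO2 (chromosome 8, minus strand), the Argonaute that can itself cleave a target, had 5126, 11934 and 15901 IP reads against 1310, 3732 and 3028 input reads, the most IP reads of the 10 genes. As for TNRC6B, both columns were lowest in SK-Mel-103. The input RPKM of its exons was 9.78, 23.2 and 21.5. These values cover listed bins only, and 425, 576 and 631 exonic bins of AGO2 were listed. In the 399 bins listed in all 3 samples the input was also lowest in SK-Mel-103, with 1275, 3009 and 2390 reads. Whether fewer listed bins, fewer cells with the RNA or less RNA per cell gave the lower input was not tested. The log2 enrichment differed between the lines by less than the SD of UACC-62, at 1.59 (1.51 to 1.68) in SK-Mel-103 versus 1.61 ± 0.12 in UACC-62. AGO2 had 18 common peaks. Of these, 10 lay between positions 2152 and 4012 of the 11888 nt of the 3′ UTR, 4 between 4952 and 8972, and 4 between 11532 and 11872. The peak at position 11752, which had the most IP reads in its lowest sample (56), had 79, 73 and 56 IP reads against 10, 18 and 15 input reads. The peak at position 4952 had 34, 97 and 122 against 13, 14 and 17, and the one closest to the 3′ end, at 11872, had 46 reads in SK-Mel-103 against 31 input reads, and 89 against 22 in UACC-62 replicate 3. The log2 enrichment of the 18 bins ranged from 0.18 to 3.44. The 5′ UTR of AGO2 held 2 listed bins in SK-Mel-103 (43 IP reads) as well as in UACC-62 replicate 3 (39 IP reads), with no input reads in either, whereas no bin was listed there in UACC-62 replicate 1.

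AGO4, AGO1 and AGO3 lie side by side on the plus strand of chromosome 1 (chr1:36273617-36323491, chr1:36335409-36396133 and chr1:36396319-36538101), and they differed in reads and in log2 enrichment. AGO1 had 648, 1414 and 3843 IP reads against 338, 1061 and 1262 input reads. Its log2 enrichment was 0.56 (0.37 to 0.76) in SK-Mel-103 versus 0.58 ± 0.46 in UACC-62, where the replicates gave 0.26 and 0.91. The spread between the UACC-62 replicates was the second largest of the 10 genes after DGCR8. AGO3 had 507, 215 and 601 IP reads against 367, 189 and 304 input reads, with 0.09 (-0.10 to 0.29) and 0.16 ± 0.18. The intervals of AGO3 included 0 in SK-Mel-103 and UACC-62 replicate 1, and only in UACC-62 replicate 3 (0.08 to 0.49) did they not. AGO4 had 50, 40 and 180 IP reads against 11, 15 and 53 input reads, the fewest of all, with 1.71 (0.85 to 2.90) and 1.12 ± 0.11. Its interval overlapped that of AGO2 in SK-Mel-103 as well as in UACC-62 replicate 1, and lay below it in UACC-62 replicate 3 (0.62 to 1.54). None of the 3 genes had a bin with more than 30 IP reads, except AGO1 with 7 such bins in UACC-62 replicate 3. Few stretches of the length of a read were identical among the members. Of all 40-nt stretches in their exons only 7 in AGO3, 4 in AGO4 and 3 in TNRC6A occur in another member. Stretches that match with mismatches were not searched, so an exchange of reads among the members is not excluded.

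DICER1 (chr14:95552565-95624347, minus strand) had 3102, 2393 and 4235 IP reads against 2436, 2596 and 2493 input reads. Its log2 enrichment was -0.03 (-0.10 to 0.05) in SK-Mel-103 versus -0.10 ± 0.24 in UACC-62, with a negative value in replicate 1 and a positive one in replicate 3. It had 8, 4 and 14 bins with more than 30 IP reads but no common peak. The bin at position 2024 of the 3′ UTR came closest, with 30, 36 and 28 IP reads against 21, 16 and 17 input reads. When 1 UACC-62 replicate at a time was left out, DICER1 held a common peak and the number of genes was 3 in both cases.

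DROSHA (chr5:31400601-31532303, minus strand) had 297, 192 and 305 IP reads against 395, 434 and 462 input reads, fewer than the input in every sample although the IP totals are the larger ones. Its log2 enrichment was -0.78 (-1.01 to -0.56) in SK-Mel-103 versus -1.31 ± 0.02 in UACC-62. Those values correspond to the 27.9th, 28.1st and 22.6th percentiles of the genes that passed. Its input RPKM of 5.49 to 6.67 over the exons was higher than that of TNRC6C in each sample.

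DGCR8 (chr22:20067744-20099400, plus strand) had 315, 74 and 95 IP reads against 233, 86 and 45 input reads. The log2 enrichment was 0.06 (-0.19 to 0.31) in SK-Mel-103 versus 0.00 ± 0.52 in UACC-62, and each sample had an interval that included 0. DGCR8 carries 2 hairpins, MIR3618 and MIR1306, in an exon, which the Drosha complex is known to cut. The only listed bin in MIR3618 had 4 IP reads and 1 input read in UACC-62 replicate 3, and no bin was listed in MIR1306.

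In the order of levels, the intervals of AGO2 and TNRC6B did not overlap in any sample, nor did those of AGO2 and TNRC6A. TNRC6B and TNRC6C overlapped in SK-Mel-103 and UACC-62 replicate 3 and not in UACC-62 replicate 1. DICER1, DGCR8 and AGO3 overlapped one another in each of the 3 samples.

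The position within the mRNA was examined next. The log2 enrichment of the 3′ UTR was higher than that of the coding region in all 3 samples for 7 of the 9 genes with enough reads (20 in each region and sample), namely DICER1, AGO1, AGO2, AGO3 and the 3 TNRC6 genes. The background was 51% of 5802 genes. The largest difference was that of TNRC6B, in which the 3′ UTR had 1.98, 2.28 and 2.41 and the coding region 0.16, -0.21 and -0.05. The coding region held 2.24%, 2.58% and 3.79% of its IP reads but 7.41%, 13.0% and 17.8% of its input reads. TNRC6B was thus above 0 in the 3′ UTR and not in the coding region of UACC-62, with a difference of 1.81 in SK-Mel-103 versus 2.48 ± 0.02 in UACC-62. The side of 0 of its coding region depends on the scaling. Before division by totals, UACC-62 replicate 3 had 521 IP reads against 332 input reads there, and replicate 1 had 263 against 273.

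AGO2 differed by 1.08 in SK-Mel-103 versus 1.26 ± 0.08 in UACC-62, with a 3′ UTR at 1.64, 1.64 and 1.81 and a coding region at 0.56, 0.33 and 0.61. Its coding region was above 0 in each sample too. DICER1 differed by 1.15 and 1.28 ± 0.03, and its 2 regions lay on opposite sides of 0, with 0.39, 0.20 and 0.61 in the 3′ UTR and -0.75, -1.10 and -0.65 in the coding region. Without division by totals the coding region of UACC-62 replicate 3 was not below 0, with 1391 IP reads against 1349 input reads. Reads of both regions make up the value near 0 of DICER1 as a whole, whose sign depends on the scaling, as the SK-Mel-103 value and the UACC-62 mean turned above 0 under each other scaling, while UACC-62 replicate 1 alone had fewer IP than input reads. AGO3, with fewer reads, had 0.18, 0.29 and 0.65 in the 3′ UTR and -0.22, -0.40 and -0.42 in the coding region. The side of 0 of its coding region depends on the scaling, since the IP reads exceeded the input reads before division by totals in SK-Mel-103 (106 against 95) as well as UACC-62 replicate 3 (158 against 130). All 3 values lay above the median of all genes, which was taken over whole exons and not over coding regions.

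TNRC6C had 2.53, 3.32 and 2.58 in the 3′ UTR and 1.23, 1.96 and 1.68 in the coding region, the highest coding region of the 9 genes in each sample. For TNRC6A the difference was 0.96 in SK-Mel-103 versus 0.86 ± 0.94 in UACC-62, an SD larger than the mean. For AGO1 it was 0.42 versus 0.38 ± 0.47. DGCR8 had the lower value in the 3′ UTR in all 3 samples (-0.48 in SK-Mel-103, -0.61 ± 0.07 in UACC-62), with intervals of both regions that overlapped. DROSHA differed in sign between samples.

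**Figure D3:**
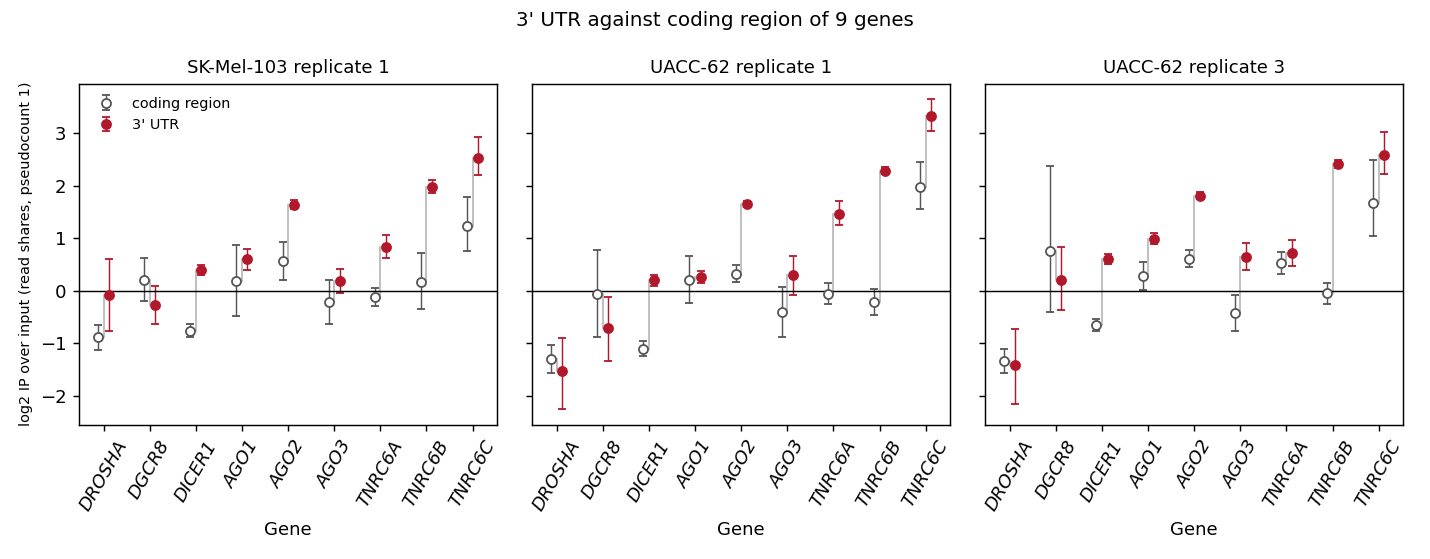
Log2 IP over input of the coding region (open circles) and the 3′ UTR (filled circles) of 9 genes in each of the 3 samples, with 95% Clopper-Pearson intervals as bars; AGO4 is left out for few reads. The 3′ UTR is the higher of both in DICER1, AGO1, AGO2, AGO3 and the TNRC6 genes in each sample, with the widest gap in TNRC6B.

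Several of these 3′ UTRs exceed 10000 nt, namely AGO3 with 16755 nt, TNRC6B with 12567 nt, AGO2 with 11888 nt and AGO1 with 10925 nt. The others have 4285 nt (AGO4), 4270 nt (DICER1), 3977 nt (TNRC6C), 2411 nt (TNRC6A), 1764 nt (DGCR8) and 938 nt (DROSHA). In windows of 500 nt, AGO2 was above 0 in all 24 windows of each sample. Its lowest values were in the first window after the stop codon in UACC-62 (0.65 and 0.51) and at 10001 to 10500 nt in SK-Mel-103 (0.55). Its highest were 2.68 and 2.31 at 7501 to 8000 nt in SK-Mel-103 and UACC-62 replicate 3, as well as 2.37 at 1501 to 2000 nt in UACC-62 replicate 1. Reads of AGO2 were thus spread over the whole 3′ UTR, and listed bins reached position 11872 in each sample.

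TNRC6B was above 0 in every window with 20 reads or more, 24, 26 and 25 of the 26 windows. The windows from 7501 to 8500 nt reached 3.05 and 3.04 in SK-Mel-103. They reached 3.15 and 3.30 in UACC-62 replicate 1, whereas the other replicate had 3.04 and 3.45. The higher of the pair was the highest window of each sample, apart from the short last window of UACC-62 replicate 1 with 22 IP reads and 0 input reads. A stretch nearer to the stop codon, from 1001 to 2000 nt, had 3.13 and 3.25 in UACC-62 replicate 1, and the other replicate had 2.90 and 2.54 there. It had 2.27 and 2.12 in SK-Mel-103, where the window from 5501 to 6000 nt was higher (2.47). In between, at 3001 to 3500 nt, the values were 1.43, 1.17 and 1.82. All 6 common peaks lay in one or the other of these stretches. The first window after the stop codon was the lowest in SK-Mel-103 (0.63) as well as UACC-62 replicate 3 (1.38), as it was for AGO2 in both UACC-62 samples.

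**Figure D4:**
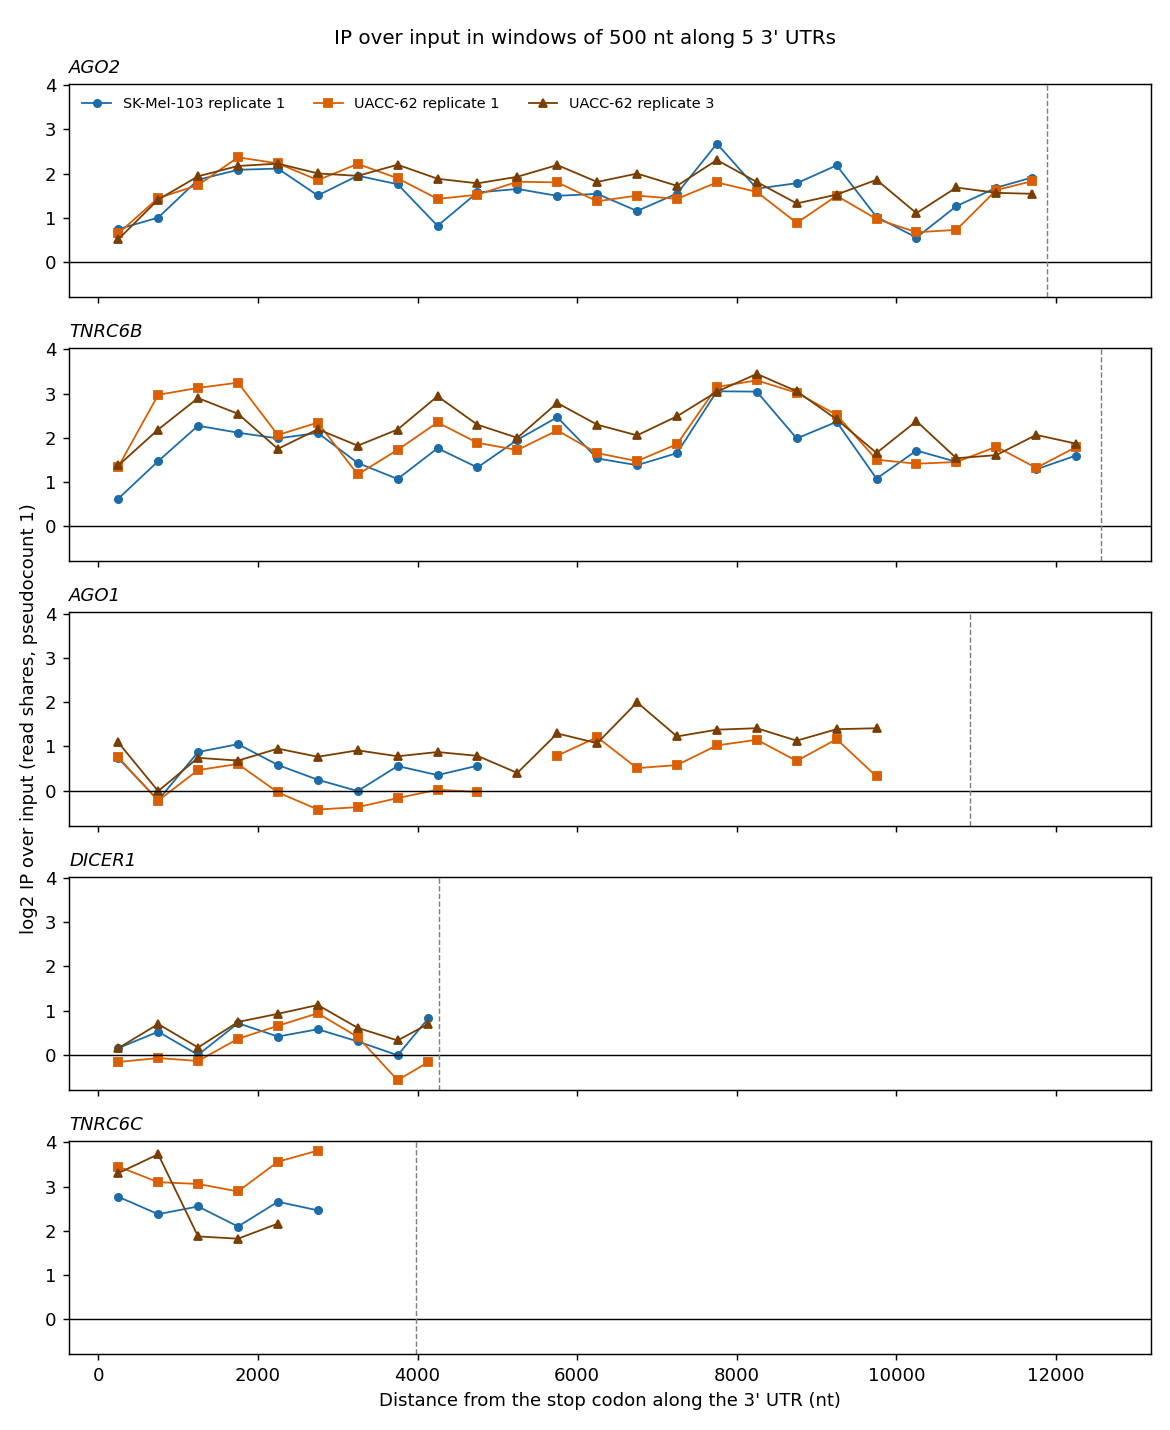
Log2 IP over input in windows of 500 nt (points at the centre of each window) against the distance from the stop codon, for AGO2, TNRC6B, AGO1, DICER1 and TNRC6C in the 3 samples; windows with under 20 reads or without input reads are left out, and the dashed line marks the annotated end. AGO2 stays above 0 throughout, TNRC6B is highest at 7501 to 8500 nt, AGO1 ends before the annotated end, and TNRC6C has no point past 3000 nt.

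AGO1 had a different profile from AGO2. Between the stop codon and 5000 nt the values of UACC-62 replicate 1 ranged from -0.42 to 0.75, with 6 of 10 windows below 0, whereas past 5500 nt they were 0.32 to 1.21. In UACC-62 replicate 3 the range was -0.01 to 1.09 before 5000 nt, and 1.07 or more past 5500 nt, with the highest window at 6501 to 7000 nt. In SK-Mel-103 no window past 5000 nt had 20 reads. The last listed bin was at position 9963 of 10925 nt in all 3 samples. TNRC6C likewise had no listed bin past positions 2565, 2685 and 2565 of 3977 nt, and its highest bin was at 2565 in each sample, with 27, 53 and 37 IP reads against 3, 3 and 0 input reads. In all 6 windows up to 3000 nt its log2 enrichment was 1.82 or more in every sample. DROSHA had no listed bin past positions 268 and 168 of its 3′ UTR in UACC-62. Since bins without enough IP reads are not listed, it is unknown from these data whether the RNA itself ended there. DICER1 was covered to its end, at position 4264 of 4270 nt, and its highest window was 2501 to 3000 nt in both UACC-62 replicates (0.94 and 1.13).

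Each 3′ UTR was further divided into 3 parts of equal length, and 6 genes had 20 reads or more in the first and the last part of each sample. The last part was higher than the first in all 3 samples in AGO1, AGO3 and DICER1, which is 3 of 6 genes against a background of 46.9% of 2834 genes. It was lower in all 3 samples in none of the 6, against 15.5%. The share of these genes was thus near the background. AGO1 went from 0.53 to 1.55 in SK-Mel-103, from -0.02 to 0.84 in UACC-62 replicate 1 and from 0.79 to 1.40 in the other replicate. The intervals of both parts of AGO1 overlapped in SK-Mel-103, where the last part held 37 IP and 9 input reads, and not in UACC-62. AGO3 went from -0.11 to 0.34, from 0.03 to 0.51 and from 0.19 to 1.37, with intervals that overlapped except in UACC-62 replicate 3. DICER1 went from 0.24 to 0.40, from -0.13 to 0.03 and from 0.35 to 0.60, with overlap in all 3 samples, and its middle part was above both at 0.52, 0.64 and 0.95. AGO2 had 1.67, 1.82 and 1.80 in the first and 1.70, 1.37 and 1.62 in the last part. TNRC6B had 1.76, 2.45 and 2.24 in the first and 1.80, 2.05 and 2.20 in the last part. In AGO2, TNRC6A and TNRC6B the last part was higher in SK-Mel-103 and lower in UACC-62, a difference between the lines that was not tested. In SK-Mel-103 the intervals of both parts overlapped in each of these 3 genes. They overlapped in UACC-62 too, except for AGO2 and TNRC6B in replicate 1. With only bins listed in all 3 samples, the last part remained higher in 1 of 5 genes, AGO1, and with 2 parts in place of 3 it was higher in 5 of 8.

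**Figure D5:**
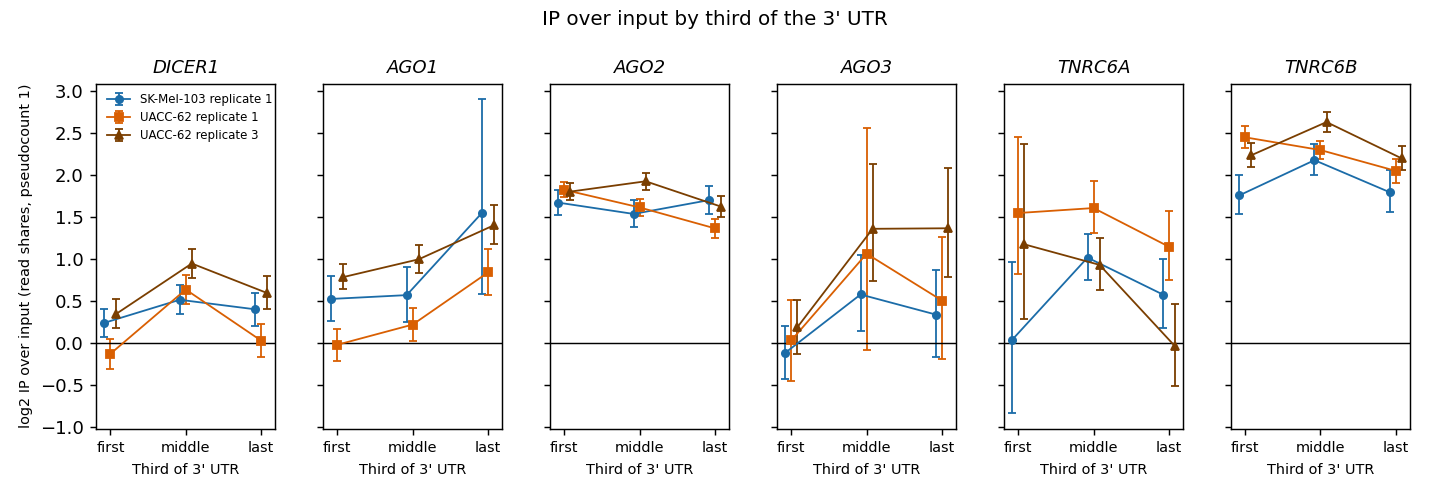
Log2 IP over input in the first, middle and last of 3 equal parts of the representative 3′ UTR for the 6 genes with 20 reads in the outer parts of each sample, with 95% Clopper-Pearson intervals as bars. AGO1, AGO3 and DICER1 end higher than they start in each of the 3 samples, and AGO2, TNRC6A and TNRC6B do not.

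The core genes were set beside 40 other genes of the pathway and its cofactors, of which 34 passed the minimum of 50 reads. Their median log2 enrichment was -0.52, -1.12 and -0.71, below that of all genes. Above 0 in all 3 samples were 6 of 34, against a background of 25.8% of the 7672 genes that passed. Below 0 in all 3 samples were 24, against 54.4%. A common peak was present in 14 of 40, against 8.75% of all 20176 protein-coding genes and 23% of the 7672 that passed. The 5 with the most were HSP90AA1 (82), TSN (52), HSP90AB1 (49), PTGES3 (47) and RAN (31). TSN, a subunit of the nuclease that removes passenger strands, had a log2 enrichment of 1.94 in SK-Mel-103 versus 1.02 ± 0.44 in UACC-62. The chaperone genes HSP90AA1, HSP90AB1 and PTGES3, which assist the loading of Argonaute, had -1.03 and -1.92 ± 0.18, -1.12 and -1.83 ± 0.53, and -0.09 and -0.84 ± 0.32 in the same order. RAN, the GTPase of precursor export, had -0.70 and -1.31 ± 0.57. A high number of common peaks went with a log2 enrichment below 0 in 4 of these 5 genes, whereas TNRC6C had the highest log2 enrichment of the core genes and no common peak. Among all genes that passed, those with more input had lower medians. The group with 684 to 36441 reads had -0.71, -1.26 and -0.93. HSP90AA1 had 33683, 27466 and 29378 input reads, and RAN had 8737, 12385 and 11103. The 40 genes were not matched to the core genes by input.

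The 3 protein-coding genes outside these lists whose log2 enrichment was nearest to the median of the 10 genes over the 3 samples were CLIP4, SLC36A4 and ANKFY1, at Euclidean distances of 0.06, 0.06 and 0.09. CLIP4 had 0.38, 0.47 and 0.74.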

How the data were processed

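RIP-Seq was performed once on SK-Mel-103 and with 2 replicates on UACC-62, with an input for each IP. Per the labels, TopHat2 2.0.4, Bowtie 0.12.7, SAMtools 0.1.16 and FastQC were used on GRCh37, whereas the methods name other versions. The authors deposited counts of IP reads, without normalization, for 20-bp bins called with Piranha 1.2.1. Each bin carries a p-value from the authors, all under 0.05. The methods give a false discovery rate of 0.05 for the peak calls. Whether the listed value is itself the corrected one is not stated. Input is held as a deposited ratio, scaled by a constant, with 0.01 for none. Replicates were not pooled. The IgG immunoprecipitation named in the methods was not analysed here.

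Dividing this ratio by its smallest step returned whole input reads (largest relative offset 5.48e-06). The strand of the transcript was taken as the reverse of the listed strand. Exons came from GENCODE version 44 mapped to GRCh37, and positions from the Ensembl canonical transcript. Depth is the reads in listed bins, 10958459 to 14436573 for IP. No test was made, because bins had been selected and the groups hold 1 and 2 samples. Members and lists were defined by function, but they and the rules were chosen with earlier results of these data known. Named genes are the 10 members, the 5 of the wider list with the most common peaks, and the 3 nearest in pattern. Alternatives covered scaling, pseudocount, bins, transcripts, strand and left-out replicates. Scripts were tested on simulated data. The tools were matplotlib 3.10.9, scipy 1.17.1, pandas 2.3.3 and numpy 2.4.6 under Python 3.11.15.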

Additional observations from a re-analysis of the deposited data

Results flagged for a closer look

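The coding region of TNRC6B had a log2 enrichment of 0.16 in SK-Mel-103 and lay below 0 in both UACC-62 replicates (mean -0.13), and each of the 3 intervals included 0. Before division by totals, only UACC-62 replicate 1 had fewer IP than input reads there. Several differences within a transcript also had one sign in SK-Mel-103 and the other in both UACC-62 replicates. The 3′ UTR minus the coding region of DROSHA was 0.79 against a UACC-62 mean of -0.15. Its 3′ UTR in SK-Mel-103 held only 43 IP and 35 input reads. The interval there (-0.76 to 0.61) overlapped that of the coding region (-1.12 to -0.64). The last minus the first part of the 3′ UTR was 0.54 against -0.81 in TNRC6A, 0.030 against -0.32 in AGO2 and 0.038 against -0.22 in TNRC6B. In SK-Mel-103 the intervals of both parts overlapped in each of these genes. Bins near a GRE minus the farther ones gave 0.11 against -0.09 in AGO1 and -0.086 against 0.36 in AGO3. These differences between the lines were not tested.

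IP reads were also listed on the strand opposite to the transcript within the exons of 4 genes, with at most 13 in TNRC6B (UACC-62 replicate 3), 8 in AGO2, 5 in AGO3 and 4 in AGO4 in any sample. None of these reads lay in an annotated antisense exon, and the 6 other genes had none.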

How the results depend on the processing

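Of 147 values of single genes under an alternative, 129 kept their sign. Of those that did not, all but 2 belong to DGCR8 or DICER1, which lie near 0. AGO3 turned below 0 with only the 3 bins listed in all 3 samples, at -0.82 (SK-Mel-103) and -0.78 (mean of UACC-62). A common peak was held by 2 genes in the report, by 10 without a read minimum, 0 with more than 100 IP reads, 0 when the strand was not reversed, 4 when the bin could differ between samples (DICER1 and TNRC6A joined) and 4 with only the UACC-62 samples (DICER1 and TNRC6C joined), an alternative chosen after seeing the data. They were 3 when 1 UACC-62 replicate at a time was left out.

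The genes above 0 in all 3 samples were 5 to 9 of those with a value, except that with only bins of more than 30 IP reads a value existed for 4, all above 0. Without a UACC-62 replicate they were 7 to 8. The median of the 10 genes in UACC-62, 0.62, was 1.04 without division by totals, 1.21 centred on all genes and 2.13 in bins with more than 30 IP reads, and 0.46 to 0.77 without a replicate. In SK-Mel-103, 0.42, it was 0.80 without division by totals, 0.60 with totals over protein-coding exons, 0.69 centred, 1.37 in bins with more than 30 IP reads and 0.60 in 3′ UTR bins. Bins with more than 30 IP reads are selected on the numerator of the ratio. The scaling shifts all genes alike, as their median of -0.26, -0.70 and -0.48 was 0.11, -0.55 and 0.22 without division by totals. The genes with a higher last part of the 3′ UTR, 3 of 6, were 5 of 8 with 2 parts in place of 3. They were 1 of 5 with bins listed in all 3 samples, and 3 of 6 when 1 UACC-62 replicate at a time was left out. The cause of these shifts was not tested. The count of genes with a higher 3′ UTR was 6 to 7 under each alternative.

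No paired analysis was possible because no result comes from a test and each IP is already set against the input of the same number. Because only bins with enough IP reads are listed, genes with few reads such as AGO4 and DGCR8 are described by their best-covered bins, and 3′ UTR stretches without listed bins cannot be described.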
